A study of Mus musculus with 24 samples.

Results

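The DNA replication genes are 39 genes whose products copy the genome, and they were read here in cells sorted as endothelium from mouse hindbrain and from 2 kinds of medulloblastoma. They were chosen by symbol: origin licensing factors, the MCM2-7 helicase and its activators, polymerases and primase, the sliding clamp and its loader, enzymes of nucleotide supply, regulators of entry into S phase, and histone and DNA methylation partners of the fork. Of the 39, 37 had a probe set that the platform annotation assigns to 1 gene symbol, out of 22180 genes measured this way. Rfc4 and Ccne2 had only probe sets shared with another gene and were not measured. No value of these arrays entered the choice rule, though the list was drawn up with earlier results of the same data known.

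The readout was RNA level on 24 Affymetrix mouse arrays, 8 for each of 3 groups, and the labels call them biological replicates. Hindbrain came from adult wild-type mice. The Shh group is medulloblastoma of mice with the genotype Ptch+/-; Ink4c-/-, for which the labels name no Cre driver, and Ink4c is an inhibitor of the G1 kinases. The Wnt group is medulloblastoma of mice that carry Blbp-Cre, with Cre driven by Blbp, a gene of neural progenitors, and 3 floxed genes: Ctnnb1 as +/Exon3 flox, Trp53 as flox/flox and Pik3ca as +/flox. All groups had a mixed strain background, papain dissociation and magnetic bead sorting through Cd144 and Cd105. The age of the tumour mice, not given in the sources used here, cannot be told apart from the tumour.

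Before S phase, the origin recognition complex, Cdc6 and Cdt1 load the MCM2-7 ring onto DNA. Cdc45 and the GINS complex then join it to form the running helicase, polymerase alpha and primase start each strand, and polymerases delta and epsilon extend them with the help of the clamp Pcna. Most of these genes are transcribed in late G1 under E2F control, and the endothelium of the adult brain is known to divide rarely.

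The promoters of members printed here show the letters that E2F factors are known to bind, for 4 members that rose in both tumours and for the 2, Pcna and Slbp, that rose in neither, a choice made after their values were seen. All 4 hold these letters, which most promoters of members that rose in both tumours did not. Each printed promoter is the 180 bases before the annotated start, 5′ to 3′ on the gene's strand, from RefSeq on build GRCm38.p6. Capitals mark TTTCCCGC, TTTCGCGC, TTTGCCGC or TTTGGCGC on either strand, and matches that overlap are joined into 1 run, as in Mcm5 and Mcm6.
Orc1 (chr4:108579274-108579453, plus strand): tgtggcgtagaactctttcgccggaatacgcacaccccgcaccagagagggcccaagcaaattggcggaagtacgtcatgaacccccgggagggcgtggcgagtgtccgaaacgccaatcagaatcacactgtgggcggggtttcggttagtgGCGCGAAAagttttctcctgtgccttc
Cdc6 (chr11:98907971-98908150, plus strand): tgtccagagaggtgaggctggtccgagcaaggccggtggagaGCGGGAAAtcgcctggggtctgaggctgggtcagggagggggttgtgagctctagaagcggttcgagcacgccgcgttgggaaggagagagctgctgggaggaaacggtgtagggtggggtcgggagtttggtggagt
Mcm5 (chr8:75109329-75109508, plus strand): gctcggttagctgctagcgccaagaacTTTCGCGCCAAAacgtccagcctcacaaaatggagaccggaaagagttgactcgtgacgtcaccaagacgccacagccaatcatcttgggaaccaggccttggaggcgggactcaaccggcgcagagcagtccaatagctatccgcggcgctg
Mcm6 (chr1:128359706-128359885, minus strand): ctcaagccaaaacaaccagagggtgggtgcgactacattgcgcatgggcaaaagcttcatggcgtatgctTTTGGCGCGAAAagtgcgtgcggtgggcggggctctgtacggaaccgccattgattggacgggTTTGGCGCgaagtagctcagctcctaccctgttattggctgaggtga
Pcna (chr2:132253181-132253360, minus strand): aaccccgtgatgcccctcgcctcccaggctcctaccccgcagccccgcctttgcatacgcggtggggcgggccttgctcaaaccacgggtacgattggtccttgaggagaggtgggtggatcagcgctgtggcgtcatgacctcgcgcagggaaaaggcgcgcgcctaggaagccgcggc
Slbp (chr5:33652575-33652754, minus strand): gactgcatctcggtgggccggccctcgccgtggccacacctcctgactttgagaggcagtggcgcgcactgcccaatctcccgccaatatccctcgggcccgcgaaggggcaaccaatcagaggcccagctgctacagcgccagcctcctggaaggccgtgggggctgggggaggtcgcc

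Of the 37 measured members, 32 had a promoter in the RefSeq table, and 8 of these (25%) held at least 1 of the 4 E2F sequences within 250 bases before the start. They were Orc1, Cdc6, Mcm5, Mcm6, Mcm7, Rfc3, Pola1 and Uhrf1. The share over all 27025 genes of the table was 2.16%. The other member promoters held none, as in Pcna and Slbp. Among them were Rrm2, Tk1, E2f1 and Chaf1b, which rose in both tumours. In Orc1 the match lay 27 to 20 bases before the start, in Cdc6 138 to 131 bases, and Mcm6 held 3 matches, between 110 and 40 bases before it. The letters CCAAT, searched on both strands, were in 19 of the 32 member promoters (59.4%) and in 37.5% of all genes. A match is a description of the letters and not a bound site, and the windows of Pcna and Slbp show only that these letters are not there.

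The sorted cells carried their endothelial markers. Cdh5, which encodes Cd144, had a mean log2 signal of 12.82 among hindbrain arrays, 12.89 among Shh arrays and 12.41 among Wnt arrays, and Eng, which encodes Cd105, had 12.83, 12.71 and 12.09. Some markers of other cells were bright too. In the same order, the pericyte marker Rgs5 had 12.90, 12.93 and 12.56, and the fibroblast marker Dcn 11.34, 12.22 and 13.37. Others of these 2 lists were dimmer, such as Higd1b (7.68, 7.12 and 6.07) and Lum (6.69, 8.78 and 6.94). The purity of the sort was not tested. The median of each array lay between 5.97 and 6.18. The 92 ERCC control probe sets, which match no mouse gene, lay mostly below a log2 signal of 5.24, their 95th percentile, and so did the hindbrain means of 3 members, Orc1, Gins1 and Pole. Cdkn2c, which encodes Ink4c, ran from 7.37 to 8.20 in Shh, from 6.49 to 7.71 in hindbrain and from 8.02 to 9.55 in Wnt arrays. It was not tested whether its probe set lies in the part deleted in the Shh group. In bulk RNA, fewer cells of a type and less RNA per cell cannot be told apart.

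Most of the 37 measured members were higher in both tumour groups than in hindbrain. In Shh arrays 35 of the 37 members were higher and 0 lower at a Benjamini-Hochberg adjusted p under 0.05 of limma's moderated test over all genes, where 18.9% of all genes were called higher and 18.9% lower. Without adjustment 0 members were lower as well. The median log2 difference over the members was 0.90, against -0.020 over all genes, and 16 members rose at least 2-fold, which 4.14% of genes did. All 8 Shh arrays lay above all 8 hindbrain arrays for 23 members, a separation found for 7.13% of genes.

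In Wnt arrays 33 members were higher and 1, Pcna, lower, against 23.2% and 22.0% of all genes. The median difference was 0.86, against -0.023 over all genes, 14 members rose at least 2-fold (6.79% of genes), and 18 had all Wnt arrays above all hindbrain arrays (10.6% of genes). Prim1, Pold1 and Slbp did not pass the test. Both comparisons use the same hindbrain arrays, and 33 members were called higher in both, where 11.5% of all genes were. In Wnt arrays the count of 33 was 31 after quantile normalization and after all arrays were shifted to 1 median, where 20.7% and 17.9% of all genes were called higher. It was 37 on the scale relative to the endothelial markers, where 88.1% of all genes were called higher and Pcna also turned to a positive difference.

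**Figure D1:**
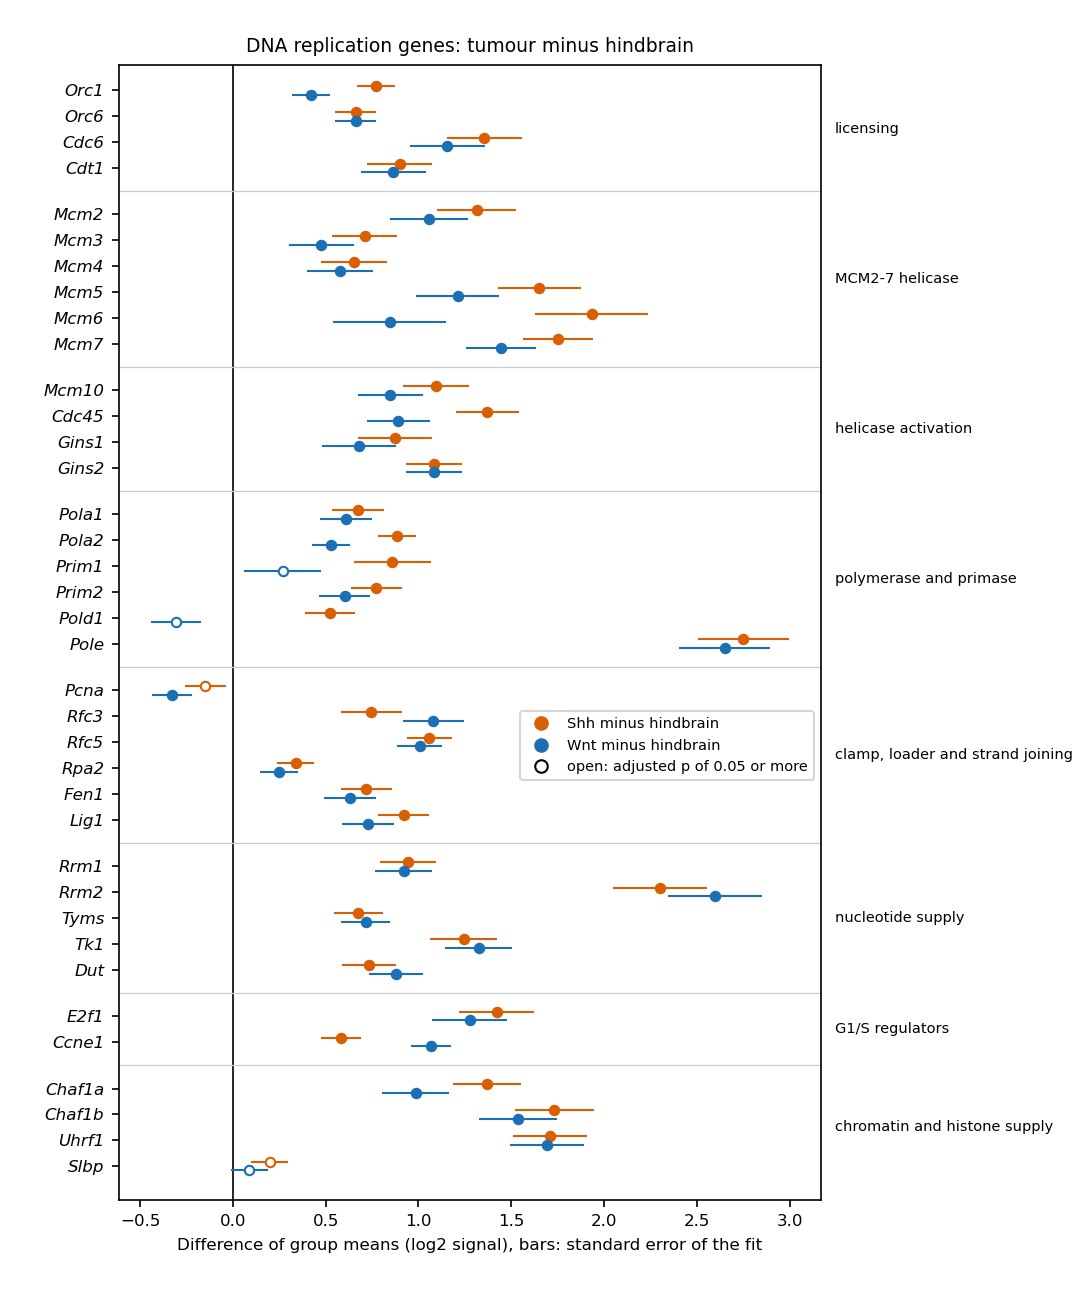
Log2 difference of the group means from hindbrain for the 37 members, grouped by role, for Shh (orange) and Wnt (blue) arrays, with the standard error of the fit and open circles where the adjusted p was 0.05 or more. Pole and Rrm2 lie farthest to the right, and Pcna, Slbp and, in Wnt arrays, Pold1 and Prim1 lie near or below 0. Relative to the endothelial markers, a scale on which 88.1% of all genes are called higher, Pcna and Pold1 turn positive in Wnt arrays.

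These counts stand beside markers of other cells that moved with the groups. For the marker counts against hindbrain, 18.9% of all genes were called higher and 18.9% lower in Shh, and 23.2% and 22.0% in Wnt. The mean of 16 endothelial markers spanned 11.13 to 11.50 among hindbrain arrays, 11.11 to 11.55 among Shh arrays and 9.71 to 10.96 among Wnt arrays, and 14 of the 16 were lower in Wnt than in hindbrain. With that mean as a covariate 6 members were called higher in Wnt arrays, namely Mcm7, Pole, Rfc5, Rrm2, Ccne1 and Uhrf1, against 12.4% of all genes, and the median standard error of the members went from 0.17 to 0.23. The 6 are not far above the share of all genes. The Wnt and hindbrain ranges of the mean do not overlap, so the fit cannot cleanly separate it from the group. Of 15 markers of granule neuron precursors, the cells from which Shh medulloblastoma arises, 14 were higher in Shh than in hindbrain arrays, Atoh1 with 7.24 to 10.22 against 5.43 to 6.03 and Dcx with 6.51 to 9.19 against 4.26 to 5.06. In Wnt arrays 4 of the 15 were higher than in hindbrain and 2 were lower. The 4 are close to the 23.2% of all genes called higher, and 9 of the 15 had a negative difference. Among the higher ones were Gli2 with 8.56 to 9.07 against 5.24 to 6.48 and Meis1 with 8.71 to 10.08 against 6.20 to 6.90. The lower ones were Zic2 with 6.81 to 10.29 against 10.73 to 11.03 and Cntn2 with 5.78 to 6.30 against 6.78 to 7.40. Atoh1 (5.35 to 5.82) and Dcx (4.12 to 4.71) did not rise in Wnt arrays. The mean of the 15 spanned 6.24 to 6.57 among hindbrain arrays, 7.36 to 9.28 among Shh arrays and 6.50 to 6.92 among Wnt arrays. With it as a covariate, chosen after the data had been seen, 0 members were called higher in Shh arrays by limma (1 without adjustment) and 1, Pcna, lower, where 2.21% and 1.78% of all genes were called, and the median standard error rose to 0.37. The Shh and hindbrain ranges of this covariate do not overlap either, so the same limit holds. Of 14 markers of microglia and macrophages, 14 were lower in Wnt and 11 in Shh than in hindbrain arrays, of 10 fibroblast markers 7 and 8 were higher, and of 10 pericyte markers 6 were lower in Wnt. Of 8 astrocyte markers 5 were higher in Shh, of 6 smooth muscle markers 5 were lower in Shh, and of 8 oligodendrocyte markers 5 were lower in each tumour. Of 9 dorsal brainstem progenitor markers 4 were higher and 1 lower in Shh, and 2 were higher and 3 lower in Wnt. Of 5 choroid plexus markers 2 were higher and 2 lower in Wnt. The higher ones were Otx2 (10.77 to 11.26, against 4.98 to 7.99 in hindbrain) and Clic6 (10.04 to 11.49, against 5.97 to 9.18). The lower ones were Ttr (5.67 to 6.49, against 5.99 to 12.66 in hindbrain) and Kl (5.54 to 6.62, against 6.41 to 10.84). The part of all these cells in the members' differences was not tested further.

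Licensing genes rose in both tumours, 4 of 4. Cdc6, the ATPase that brings the helicase to the origin, had a lowest, median and highest log2 signal of 5.27, 5.57 and 5.86 among hindbrain arrays, 6.07, 6.94 and 7.60 among Shh arrays and 5.92, 6.69 and 7.43 among Wnt arrays. All arrays of both tumours lay above all hindbrain arrays, and the difference from hindbrain was 1.35 ± 0.20 in Shh (adjusted p = 8.66e-06) and 1.15 ± 0.20 in Wnt (adjusted p = 3.39e-05). Orc1, the largest subunit of the origin recognition complex, was dim, with 5.03, 5.21 and 5.39 among hindbrain arrays, 5.54, 5.89 and 6.47 among Shh arrays and 5.45, 5.62 and 5.84 among Wnt arrays. It too was separate from hindbrain in both tumours, by 0.77 ± 0.10 in Shh and 0.42 ± 0.10 in Wnt arrays, and 3 of 8 hindbrain arrays were above the ERCC percentile, to which the others raised gave at least 1.62-fold and 1.27-fold. Cdt1, the partner of Cdc6 in loading, rose by 0.90 and 0.86, and Orc6, a smaller subunit, by 0.66 and 0.66, in Shh and Wnt in that order. For both genes 1 array of each tumour overlapped hindbrain.

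All 6 subunits of the MCM2-7 helicase rose in both tumours, with a median difference of 1.48 in Shh and 0.95 in Wnt arrays. Mcm7 had values of 7.35, 7.63 and 7.96 among hindbrain arrays, 8.44, 9.41 and 10.11 among Shh arrays and 8.32, 9.12 and 9.54 among Wnt arrays, lowest, median and highest. No tumour array reached down to the hindbrain range, and the rise was 3.37-fold in Shh (log2 1.75 ± 0.19) and 2.72-fold in Wnt (log2 1.44 ± 0.19). Mcm5 gave 7.81, 8.24 and 8.56 among hindbrain arrays, 8.75, 9.99 and 10.59 among Shh arrays and 8.34, 9.45 and 10.21 among Wnt arrays. Its Shh arrays were all above hindbrain and 7 of 8 Wnt arrays were, with differences of 1.65 ± 0.22 and 1.21 ± 0.22. Mcm2 behaved alike in its counts, with 1.31 in Shh, all arrays apart, and 1.06 in Wnt, 7 of 8 arrays above hindbrain.

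Mcm6 was the member with the widest spread among hindbrain arrays, a standard deviation of 0.73 against a median of 0.16 over members. Its values were 6.23, 7.53 and 8.41 among hindbrain arrays, 8.61, 9.33 and 9.77 among Shh arrays and 6.82, 8.24 and 9.37 among Wnt arrays. All Shh arrays lay above hindbrain, with 1.93 ± 0.30 (adjusted p = 1.80e-05), whereas 4 of 8 Wnt arrays did, with 0.85 ± 0.30 (adjusted p = 0.0252). The Wnt call was lost without hindbrain replicate 3, 4 or 6 or Wnt replicate 2, at differences of 0.74, 0.69, 0.76 and 0.67. Mcm3 and Mcm4 changed least of the ring, Mcm3 by 0.71 and 0.48 ± 0.17 and Mcm4 by 0.65 and 0.58 in Shh and Wnt. The Wnt call of Mcm3 was lost without hindbrain replicate 4 or Wnt replicate 1, 2 or 8, at 0.44, 0.44, 0.37 and 0.45, and under quantile normalization (0.34) and the median shift (0.36).

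The 4 helicase activation genes rose in both tumours as well, by a median of 1.09 in Shh and 0.87 in Wnt arrays. Cdc45, a subunit of the running helicase, had 5.61, 5.86 and 6.04 among hindbrain arrays, 6.38, 7.26 and 7.79 among Shh arrays and 6.15, 6.74 and 7.43 among Wnt arrays. The tumour arrays were all above hindbrain, by 1.37 ± 0.17 in Shh (adjusted p = 6.91e-07) and 0.89 ± 0.17 in Wnt (adjusted p = 0.000103). Gins2, a subunit of the GINS complex, rose by 1.09 and 1.08 with no overlap, and Mcm10, which helps to start unwinding, by 1.09 and 0.85, also with no overlap. Gins1, another GINS subunit, was under the ERCC percentile in all hindbrain arrays (4.56 to 5.16 among hindbrain arrays, 4.97 to 6.33 among Shh arrays and 4.44 to 5.97 among Wnt arrays). Its measured differences were 0.87 and 0.68, both called, with 6 of 8 arrays of each tumour above all hindbrain arrays. With the hindbrain arrays raised to that percentile the rises were 1.30-fold and 1.14-fold. Some tumour arrays also lay under it and were kept as measured, so these are not lower bounds.

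Polymerase and primase genes split between the tumours. All 6 rose in Shh arrays and 4 of 6 in Wnt arrays, where Prim1 and Pold1 did not pass. Pole, the catalytic subunit of polymerase epsilon that extends the leading strand, had 4.75, 5.10 and 5.63 among hindbrain arrays, 6.83, 7.93 and 8.78 among Shh arrays and 6.57, 7.94 and 8.30 among Wnt arrays. In hindbrain 3 of 8 arrays were above the ERCC percentile, and every tumour array lay above all hindbrain arrays, with 2.75 ± 0.25 in Shh (adjusted p = 4.41e-09) and 2.65 ± 0.25 in Wnt (adjusted p = 2.34e-09). With the dim hindbrain arrays raised to that percentile the tumours were at least 5.92-fold and 5.52-fold higher. A second probe set of Pole, dimmer with a mean of 5.23, did not follow, at -0.050 in Shh and -0.15 in Wnt, neither called, so the Pole rise rests on 1 probe set.

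Pold1, the catalytic subunit of polymerase delta, had 7.92, 8.14 and 8.29 among hindbrain arrays, 8.16, 8.62 and 9.04 among Shh arrays and 7.13, 7.85 and 8.42 among Wnt arrays. Shh arrays were high, 7 of 8 above all hindbrain arrays, at 0.52 ± 0.13 (adjusted p = 0.00327), while Wnt arrays reached the lowest values, 1 of 8 above all hindbrain arrays, at -0.31 ± 0.13 (adjusted p = 0.0658). Without Shh replicate 3 or Wnt replicate 2 the Wnt difference was called lower, at -0.31 and -0.39, as it was under quantile normalization (-0.43) and the median shift (-0.42), and it was 0.59 relative to the endothelial markers. Prim1, the catalytic primase subunit, had 6.24, 6.47 and 6.71 among hindbrain arrays, 6.49, 7.36 and 7.91 among Shh arrays and 5.64, 6.88 and 7.36 among Wnt arrays. Its Shh arrays rose by 0.86 ± 0.21, and its Wnt arrays straddled hindbrain at 0.27 ± 0.21 with an adjusted p of 0.324. Prim2, the other primase subunit, rose by 0.77 and 0.60, the polymerase alpha subunits Pola1 by 0.67 and 0.61 and Pola2 by 0.88 and 0.53, in Shh and Wnt.

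**Figure D2:**
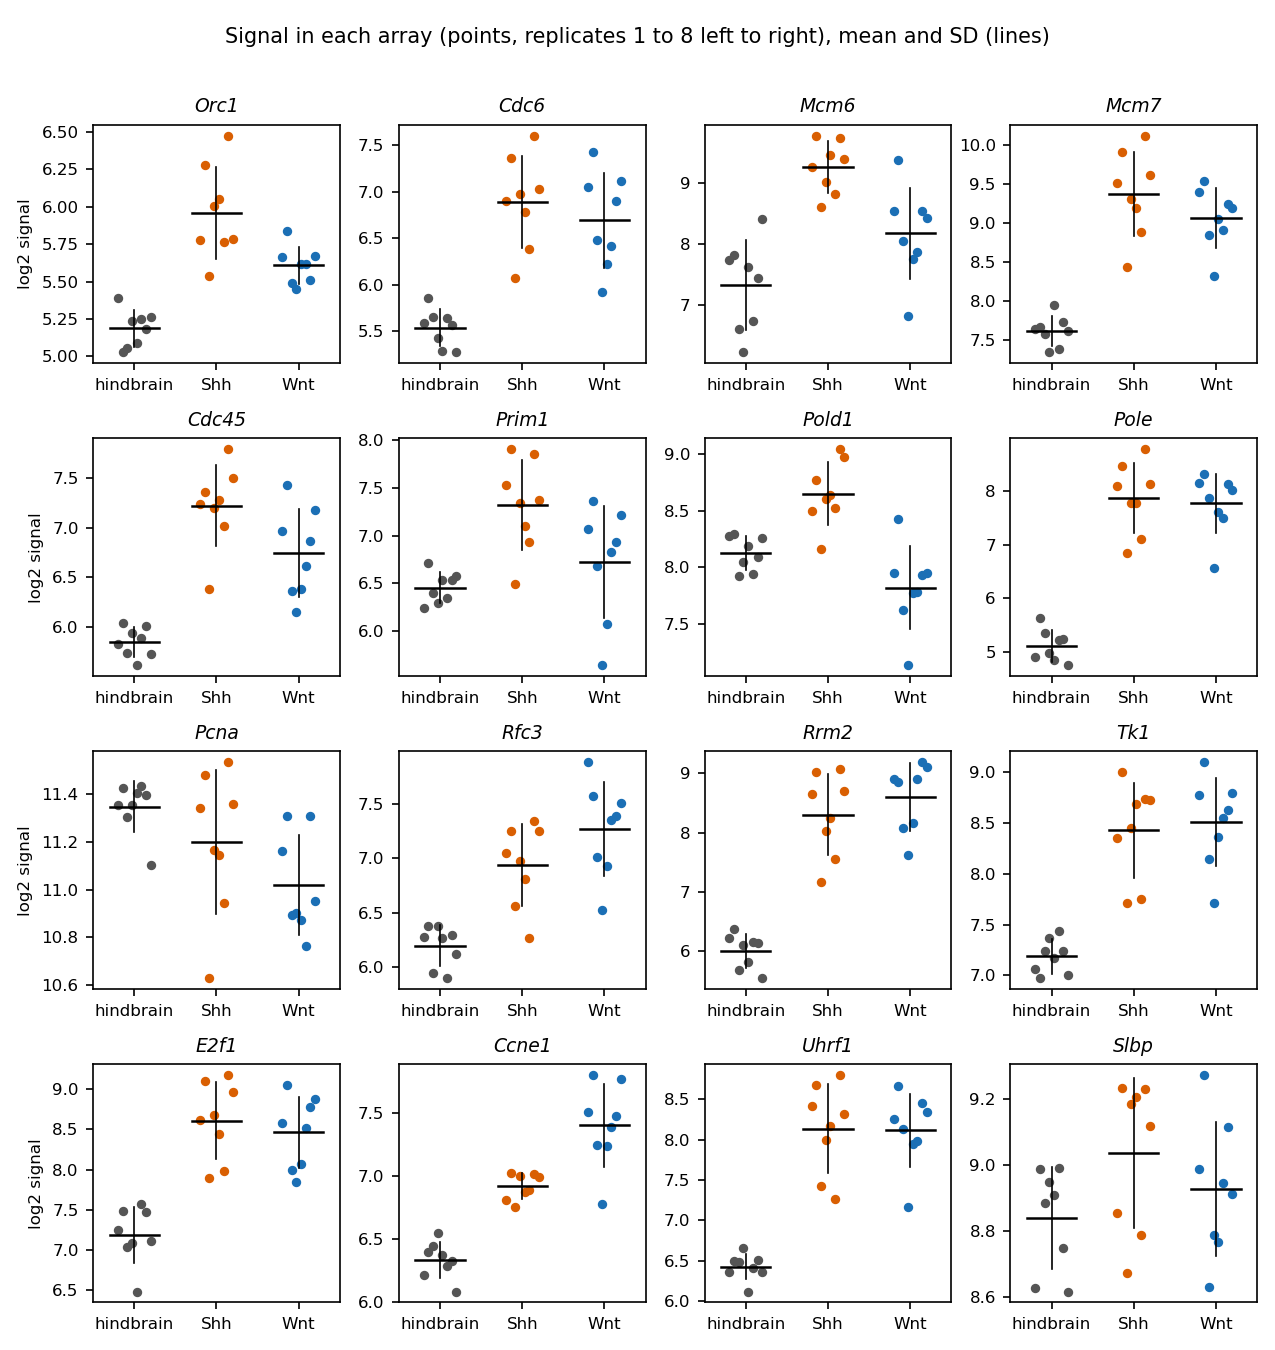
Log2 signal of 16 members in each of the 8 hindbrain (grey), Shh (orange) and Wnt (blue) arrays, with group means (horizontal lines) and standard deviations (vertical lines); each panel has its own axis, which does not start at 0. Pole runs from 4.75 to 5.63 in hindbrain and from 6.57 to 8.78 in the tumours, whereas Pcna and Slbp overlap in all groups and Pold1 is lowest in Wnt arrays.

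At the clamp and strand joining step 5 of 6 measured genes rose in each tumour and the clamp itself did not. Pcna, the ring that holds polymerases on DNA, had 11.11, 11.38 and 11.43 among hindbrain arrays, 10.63, 11.25 and 11.53 among Shh arrays and 10.76, 10.93 and 11.31 among Wnt arrays. Tumour arrays lay inside or below the hindbrain range except for 2 Shh arrays, at -0.15 ± 0.11 in Shh (not called, adjusted p = 0.303, 95% interval -0.37 to 0.076) and -0.33 ± 0.11 in Wnt (called lower, adjusted p = 0.0157). The Wnt difference was 0.57 relative to the endothelial markers, a scale on which the median of all genes was 0.87.

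Of the clamp loader, the members Rfc3 and Rfc5 rose, Rfc3 with 5.89, 6.27 and 6.38 among hindbrain arrays, 6.27, 7.01 and 7.35 among Shh arrays and 6.52, 7.37 and 7.89 among Wnt arrays. Wnt arrays of Rfc3 were all above hindbrain and 7 of 8 Shh arrays were, at 1.08 ± 0.17 and 0.75 ± 0.17. Rfc5 rose by 1.06 in Shh and 1.01 in Wnt with no overlap in either. Lig1, the ligase that seals lagging strand fragments, rose by 0.92 and 0.73, and Fen1, the nuclease that trims their flaps, by 0.72 and 0.63. A dimmer second probe set of Fen1 gave -0.11 and 0.044, neither called. Rpa2, a subunit of the single-strand binding protein, moved least among those called, 0.34 ± 0.10 in Shh and 0.25 ± 0.10 in Wnt (adjusted p = 0.0482). The Wnt call of Rpa2 was lost when any 1 of 15 of the 24 arrays was left out, at differences of 0.21 to 0.26, and at 0.10 under quantile normalization and 0.14 under the median shift.

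Nucleotide supply rose in full, 5 of 5 genes in each tumour. Rrm2, the regulated subunit of the ribonucleotide reductase that makes deoxynucleotides, had 5.54, 6.12 and 6.37 among hindbrain arrays, 7.17, 8.45 and 9.07 among Shh arrays and 7.62, 8.88 and 9.19 among Wnt arrays. It was 6.05-fold higher in Wnt (log2 2.60 ± 0.25, adjusted p = 5.71e-09) and 4.92-fold in Shh (log2 2.30 ± 0.25, adjusted p = 1.23e-07), with all arrays apart. Its second probe set, at a mean of 3.72 within the ERCC range, was also called higher, by 0.40 and 0.61. Rrm1, the larger subunit, rose by 0.92 in Wnt and 0.94 in Shh. Tk1, the thymidine kinase of dividing cells, had 6.97, 7.21 and 7.44 among hindbrain arrays, 7.72, 8.57 and 9.01 among Shh arrays and 7.72, 8.59 and 9.10 among Wnt arrays. Both tumours were separate from hindbrain for Tk1, at 1.33 ± 0.18 in Wnt and 1.24 ± 0.18 in Shh. Tyms, which makes thymidylate, rose by 0.71 and 0.68, and Dut, which removes dUTP, by 0.88 and 0.73, in Wnt and Shh. Dut's second probe set, with a mean of 4.36, did not move in a called way (0.00094 and 0.15).

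Both measured regulators of S phase entry rose. E2f1, an activating member of the E2F family, had 6.48, 7.18 and 7.58 among hindbrain arrays, 7.90, 8.65 and 9.17 among Shh arrays and 7.84, 8.55 and 9.05 among Wnt arrays. All tumour arrays lay above hindbrain, at 1.42 ± 0.20 in Shh (adjusted p = 4.78e-06) and 1.28 ± 0.20 in Wnt (adjusted p = 9.74e-06). Ccne1, cyclin E1, had 6.08, 6.35 and 6.55 among hindbrain arrays, 6.75, 6.94 and 7.03 among Shh arrays and 6.78, 7.43 and 7.80 among Wnt arrays. Here too the tumours were apart from hindbrain, with 1.07 ± 0.11 in Wnt and 0.58 ± 0.11 in Shh, and 7 of 8 Wnt arrays lay above all Shh arrays.

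Among chromatin partners of the fork 3 of 4 rose in each tumour. Uhrf1, which brings the maintenance DNA methyltransferase to new DNA, had 6.12, 6.45 and 6.66 among hindbrain arrays, 7.27, 8.25 and 8.80 among Shh arrays and 7.17, 8.19 and 8.67 among Wnt arrays. It was 3.27-fold higher in Shh (log2 1.71 ± 0.20) and 3.23-fold in Wnt (log2 1.69 ± 0.20), with no overlap. The chromatin assembly factor subunits rose by 1.73 and 1.54 for Chaf1b and 1.37 and 0.98 for Chaf1a, in Shh and Wnt. Slbp, which binds histone messenger RNA and is known to be controlled largely at the protein level, overlapped in all groups: 8.62, 8.90 and 8.99 among hindbrain arrays, 8.67, 9.15 and 9.23 among Shh arrays and 8.63, 8.93 and 9.27 among Wnt arrays. Its differences were 0.20 ± 0.099 in Shh (95% interval -0.0057 to 0.40) and 0.089 ± 0.099 in Wnt (95% interval -0.12 to 0.29), neither called. Without Shh replicate 3 the Shh difference was called, at 0.25.

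Set against each other, the tumours differed in a minority of members. Of the 37, 6 were lower in Wnt than in Shh arrays and 1 was higher, against 17.8% and 18.0% of all genes, and 30 were not called. The 6 are close to the share of all genes, and the 1 is below it. The sign was lower in Wnt for 30 of 37, with a median of -0.15 against -0.0019 over all genes, but relative to the endothelial markers 31 members were higher in Wnt and 0 lower, without adjustment also 0, where 89.1% of all genes were called higher and 1.97% lower. With the endothelial marker mean as a covariate 21 were lower and 0 higher (without adjustment 31 and 0), against 8.21% and 8.89% of all genes. With the precursor marker mean 0 were lower (without adjustment 0) and 4, Mcm7, Pcna, Rrm2 and Dut, higher, against 8.74% and 8.39%, so that the 4 are close to the share of all genes. Neither marker mean overlaps between the tumours, so these fits cannot cleanly separate it from the group. Leaving out Shh replicate 3, the array with the lowest members in its group, gave 9 lower, and leaving out Shh replicate 7, the highest, gave 4.

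Those lower in Wnt arrays were a helicase subunit, a helicase activator, 3 genes of the polymerases and primase, and an origin subunit. Mcm6 differed most, by -1.09 ± 0.30 (95% interval -1.71 to -0.46, adjusted p = 0.00624), and Pold1 had the smallest p, at -0.83 ± 0.13 (95% interval -1.11 to -0.55, adjusted p = 2.29e-05). Pola2 differed by -0.36 ± 0.10 (adjusted p = 0.00871) and Orc1 by -0.35 ± 0.10 (adjusted p = 0.00792). Prim1 at -0.59 ± 0.21 and Cdc45 at -0.48 ± 0.17 were closer to the threshold, with adjusted p of 0.0284 and 0.0294. The Prim1 call was lost without Shh replicate 2 or 7 or Wnt replicate 4 or 5 (-0.51, -0.52, -0.44 and -0.50) and the Cdc45 call without Shh replicate 7 or 8 or Wnt replicate 3, 4 or 5 (-0.40, -0.44, -0.43, -0.39 and -0.43). Both calls were also lost when the 2 tumour groups were fitted alone, with adjusted p of 0.074 for Prim1 and 0.0735 for Cdc45, which left 4 members lower. The tumours overlapped for all 37 members, where 5.8% of genes had every Wnt array above and 4.32% below every Shh array, and of the 6 only Mcm6 differed by 2-fold or more, which 3.49% of genes did downward.

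Ccne1 was the member higher in Wnt arrays, by 0.48 ± 0.11 (95% interval 0.26 to 0.70, adjusted p = 0.00076), and this difference was 0.099, not called, with the endothelial covariate. The 5 nucleotide supply genes had differences from -0.025 to 0.30, none called, with 95% intervals as wide as -0.23 to 0.82 for Rrm2. Rfc3 missed the threshold at 0.33 ± 0.17 and was called higher without Wnt replicate 4, at 0.44. Mcm5 (-0.44), Mcm7 (-0.31) and Pcna (-0.18) were called lower without Shh replicate 3, at -0.60, -0.44 and -0.26, and Chaf1a (-0.38) without Shh replicate 6 or Wnt replicate 2, at -0.49 and -0.48. For Orc6 and Gins2 the tumours differed by under 0.01, with 95% intervals of -0.23 to 0.23 and -0.31 to 0.31.

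**Figure D3:**
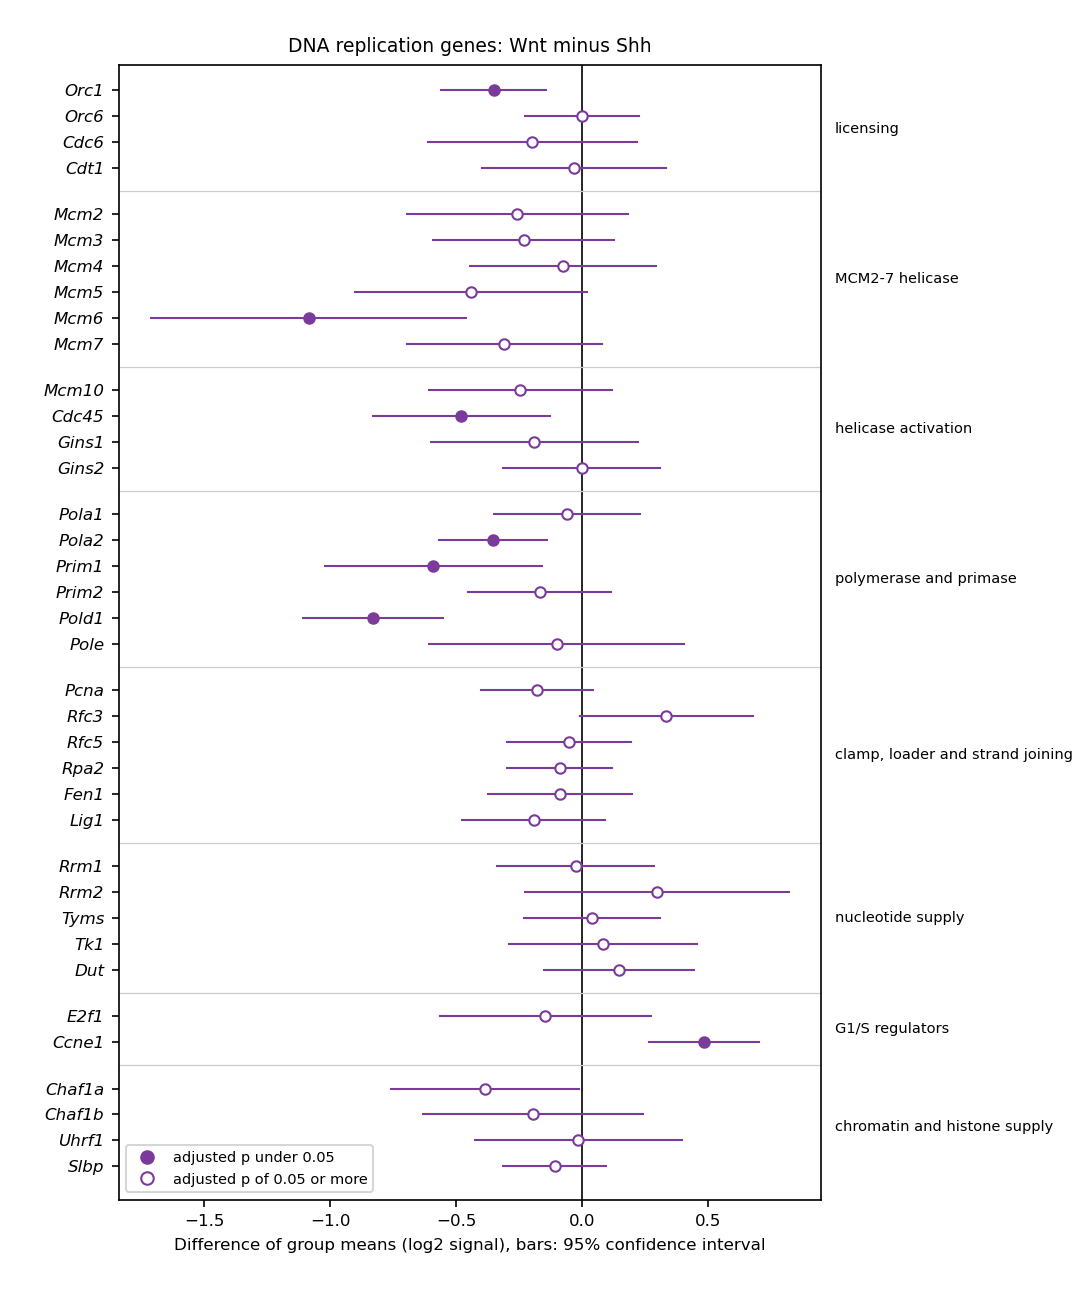
Log2 difference of Wnt minus Shh group means for the 37 members, by role, with 95% confidence intervals, filled where the adjusted p was under 0.05. The intervals use a spread shared with the hindbrain arrays, among which the members varied less. The 6 filled points to the left include Mcm6 and Pold1, and Ccne1 is the filled point to the right; relative to the endothelial markers all but Mcm6 lie to the right of 0.

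The members varied much more among tumour arrays than among hindbrain arrays. The median standard deviation over members was 0.16 among hindbrain arrays, 0.41 among Shh arrays and 0.42 among Wnt arrays, against 0.18, 0.21 and 0.21 over all genes. The mean of the 37 members spanned 7.07 to 7.25 among hindbrain arrays, 7.55 to 8.67 among Shh arrays and 7.35 to 8.55 among Wnt arrays. Members moved together from array to array: Shh replicate 3 held the lowest Shh value for 30 of 37 members and replicate 6 for the other 7, and Shh replicates 7 and 2 held the highest for 23 and 14. In the Wnt group replicate 4 was lowest for 34 members and replicate 2 highest for 31.

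Other lists varied over the same arrays. The mean of 24 mitosis genes was lowest in Shh replicate 6 (7.74) and 3 (7.89) and highest in Shh replicate 7 (9.30), and in the Wnt group it was lowest in replicate 4 (7.38) and highest in replicate 2 (9.04). Within the Shh group the precursor markers were also lowest in replicate 3 (7.36) and highest in replicate 7 (9.28), and the endothelial markers were lowest in replicate 7 (11.11). In the Wnt group the mean of the precursor markers stayed between 6.50 and 6.92, highest in replicate 4. Endothelial markers of the Wnt group were lowest in replicates 8 (9.71) and 1 (9.89), in which the member mean was 8.26 in both. They were highest in replicates 5 (10.96) and 4 (10.93), with lower member means of 7.78 and 7.35. Wnt replicate 2, with the highest member mean, had 10.58. In the Shh group they were highest in replicates 6 and 3, at 11.55 in both, with low member means of 7.75 and 7.55. Without Wnt replicates 8 and 1 together 30 members were higher in Wnt than in hindbrain.

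**Figure D4:**
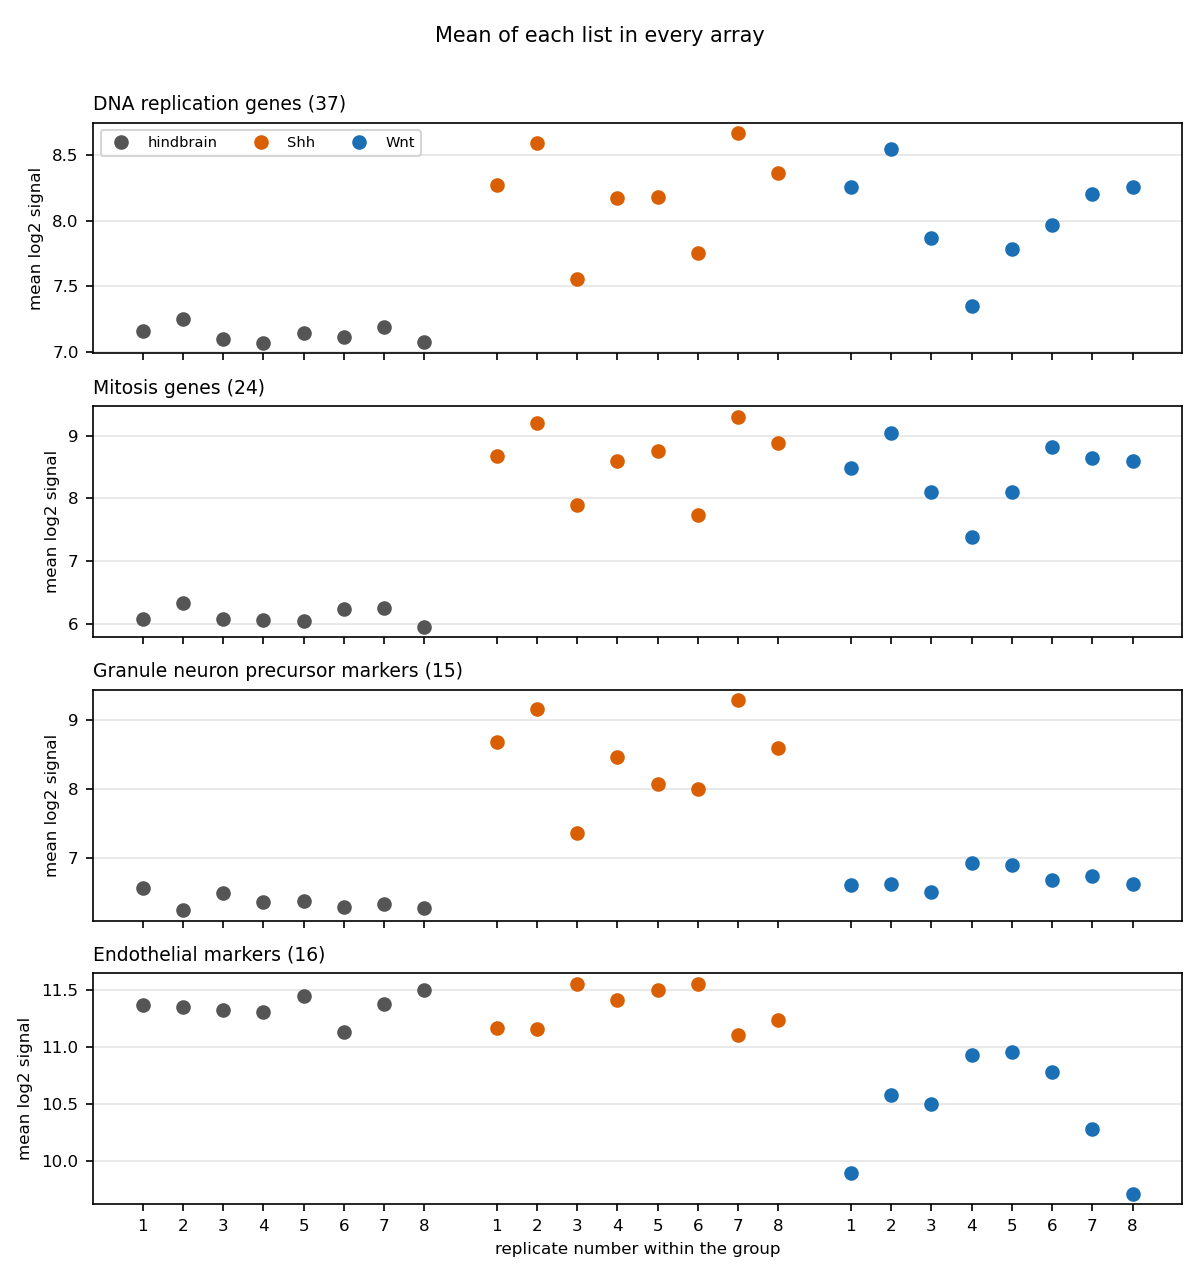
Mean log2 signal in each array of the 37 replication genes, 24 mitosis genes, 15 granule neuron precursor markers and 16 endothelial markers, with arrays ordered by group and replicate number and axes that do not start at 0. The tumour arrays lie above hindbrain for replication and mitosis genes, and Wnt arrays are low for endothelial markers (9.71 to 10.96). The mean of the precursor markers is high in Shh arrays alone (7.36 to 9.28). In Wnt arrays 4 of the 15 were higher than in hindbrain and 2 lower, where 23.2% and 22.0% of all genes were.

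Other genes of the same pathways followed in part. All 24 measured mitosis genes rose at least 2-fold in both tumours with every tumour array above every hindbrain array, at medians of 2.37 in Shh and 2.08 in Wnt. Over all genes 4.14% rose at least 2-fold in Shh and 6.79% in Wnt, and 7.13% and 10.6% had every tumour array above hindbrain. The mitotic cyclin Ccna2 rose by 3.71 ± 0.23 and 3.55 ± 0.23, the kinase Cdk1 by 3.63 ± 0.22 and 3.40 ± 0.22, and the proliferation marker Mki67 by 3.42 ± 0.24 and 3.03 ± 0.24. Between the tumours 1 of the 24 was lower in Wnt, where 17.8% of all genes were. It was Bub1b, which is named here after its values were seen.

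Of 18 other origin and helicase genes, 11 rose and 1 fell in Shh and 8 rose and 2 fell in Wnt, at medians of 0.31 and 0.17. Over all genes 18.9% were called higher and 18.9% lower in Shh, and 23.2% and 22.0% in Wnt. Ticrr, which helps Cdc45 to load, rose by 2.21 ± 0.23 and 1.68 ± 0.23, and Dbf4, the activator of the Cdc7 kinase, by 1.68 ± 0.15 and 1.10 ± 0.15. Donson, a factor of helicase assembly, went the other way, by -0.67 ± 0.14 in Shh and -1.18 ± 0.14 in Wnt. Of 22 other fork and polymerase genes, 14 rose and 0 fell in Shh and 12 rose and 2 fell in Wnt. Exo1, a nuclease, rose by 1.53 ± 0.19 and 1.14 ± 0.19. Rpa1, the large subunit of the single-strand binding protein, was high in Wnt arrays, from 8.77 to 9.74, against 7.77 to 8.52 in Shh and 7.70 to 8.16 in hindbrain, with a rise over hindbrain of 1.46 ± 0.13. The polymerase delta subunits Pold3 (-0.23 ± 0.0623) and Pold4 (-0.33 ± 0.11) were the 2 that fell in Wnt arrays, and relative to the endothelial markers they were 0.67 and 0.57.

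Nucleotide supply outside the members was mixed, 6 of 12 genes higher and 2 lower in Shh and 5 higher and 3 lower in Wnt. Over all genes 18.9% were called higher and 18.9% lower in Shh, and 23.2% and 22.0% in Wnt. The falls in this list are close to these shares. Dck, the deoxycytidine kinase, rose by 1.25 ± 0.12 and 1.06 ± 0.12, and Dctd, the dCMP deaminase, by 1.62 ± 0.19 and 1.29 ± 0.19. Rrm2b, the reductase subunit that serves resting cells, fell by 0.63 ± 0.085 and 0.65 ± 0.085 with all tumour arrays below hindbrain, and was 0.25 in Wnt relative to the endothelial markers. Of 16 E2F and pocket protein genes, 9 rose in each tumour, 0 fell in Shh and 1, Lin54, fell in Wnt. The repressor E2f8 rose by 2.63 ± 0.25 and 2.21 ± 0.25. Of 11 other chromatin genes of the fork, 10 rose in Shh and 7 in Wnt and 0 fell in either, with the histone chaperone Asf1b at 1.77 ± 0.21 and 1.81 ± 0.21.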

How the data were processed

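Cells sorted with Cd144 and Cd105 antibodies from hindbrain, Shh medulloblastoma and Wnt medulloblastoma, 8 biological replicates of each, were measured on Affymetrix arrays. The log2 values per probe set and array deposited by the authors were used as they stand. Per the submitters' processing notes Partek 6.6 was used, without its role. Other steps (summarisation, background correction, normalization, array build): not given in the sources used here. Precision is limited by the 8 arrays per group.

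Of 41345 probe sets, 190 were controls, 1814 had several gene symbols and 15820 none, and these were left out. The other 23521 gave 22180 genes, each read from its probe set with the highest mean. Group means of every gene were fitted over the 24 arrays by lmFit and eBayes of limma 3.58.1 (R 4.3.3, 21 residual degrees of freedom). Genes were called at a two-sided Benjamini-Hochberg adjusted p under 0.05 over all genes, and the script was tested on simulated data. Values after ± are standard errors of log2 differences.

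The members and lists were chosen with earlier results of these data known. All members were to be named, and from each other list at most the 2 largest called rises and falls. The labels give no pairing or batch. After the group means were removed, same-numbered arrays had correlations of -0.146 to 0.282 over all genes. For the members alone the numbers may matter: the member mean was highest in replicate 2 of both the hindbrain and the Wnt group. Whether the numbers mark a shared batch was not tested. Alternatives were other choices of probe set, scaling, filter, variance model and array weights, the compared groups alone, a replicate block, marker means as covariates, a scale relative to the endothelial markers, and leaving out arrays. The covariate of granule neuron precursor markers was chosen after seeing the data. Promoters of RefSeq on GRCm38.p6 were matched by symbol for 32 members, with 250 bases before each start searched.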

Additional observations from a re-analysis of the deposited data

Results flagged for a closer look

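In 5 of 114 sets of 8 arrays, 1 for each member and group and 1 for the member mean of each group, a single array stood apart by Dixon's test at 95%, where chance marks about 1 in 20. Gins1 was highest in hindbrain replicate 2, at 5.16 with the next at 4.84. Pole was lowest in Wnt replicate 4, at 6.57 with the next at 7.49, and that array was the lowest Wnt array for 34 of 37 members. Pcna was lowest in hindbrain replicate 8, at 11.11 with the next at 11.31. Rpa2 was lowest in hindbrain replicate 6, at 6.87 with the next at 7.13, and Tyms was highest in hindbrain replicate 7, at 8.45 with the next at 7.98.

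The difference from hindbrain was itself different between the tumours, tested as Wnt minus Shh with limma over all genes, for 7 members. Of these 6 were lower in Wnt, where 17.8% of all genes were, and 1 was higher, where 18.0% were. The log2 differences were -1.09 for Mcm6, -0.83 for Pold1, -0.59 for Prim1, -0.48 for Cdc45, -0.36 for Pola2, -0.35 for Orc1 and 0.48 for Ccne1. Relative to the endothelial markers 5 of the 6 negative values turned positive.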

How the results depend on the processing

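The 33 members higher and 1 lower in Wnt arrays, 35 higher and 0 lower in Shh arrays, and 1 higher and 6 lower in Wnt against Shh stayed within 1.5 times of these counts under the mean of all probe sets, the probe set with the smallest p of each gene and comparison, the filter on dim genes, the variance trend, the compared groups alone (4 lower in Wnt than in Shh) and the fit without Wnt replicates 1 and 8. Leaving out each array gave 30 to 33 and 1 to 2, 35 to 36 and 0 to 0, and 1 to 2 and 4 to 9 in the same order. Members lower in Wnt arrays numbered 2, with Pold1 added, under quantile normalization, the shift to the same median, array weights, the replicate block, the endothelial covariate and the precursor covariate, and 0 relative to the endothelial markers. With the replicate block 7 members were lower in Wnt than in Shh, Chaf1a added, and the other counts kept to 33, 35, 0 and 1. The block took the median standard error of the members from 0.17 to 0.14, and the labels do not say whether the numbers pair the arrays.

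With the endothelial covariate 6 members were higher in Wnt than in hindbrain, and 0 higher and 21 lower in Wnt than in Shh. Relative to the endothelial markers, 31 were higher and 0 lower in Wnt than in Shh. With the precursor covariate, 0 were higher and 1 lower in Shh than in hindbrain, and 4 higher and 0 lower in Wnt than in Shh. The share of higher among all called genes was 51.3% in Wnt against hindbrain, 34.9% after the median shift, which moved the median of all genes from -0.023 to -0.14, and 96.5% relative to the endothelial markers. In Shh against hindbrain it was 50.1%, 33.4% and 54.1%, and in Wnt against Shh 50.3%, 45.8% and 97.8%. The member median ranged over all alternatives from 0.26 to 1.76, 0.074 to 0.997 and -0.69 to 0.74.

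Wnt minus hindbrain differences that changed sign, called or not, were -0.16 for Mcm3, -0.046 for Mcm4, -0.25 for Gins1, -0.63 for Prim1, -0.078 for Rpa2 and -0.10 for Slbp with the endothelial covariate, 0.59 for Pold1, 0.57 for Pcna, 0.54 for Lin54, 0.71 for Orc5, 0.67 for Pold3, 0.57 for Pold4, 0.25 for Rrm2b and 0.30 for Samhd1 relative to the endothelial markers, and -0.024 for Slbp after the median shift. Those of Shh minus hindbrain, with the precursor covariate, were -0.25 for Cdt1, -0.29 for Mcm3, -0.53 for Mcm4, -0.24 for Mcm10, -0.22 for Gins1, -0.014 for Pola1, -0.17 for Prim1, -0.22 for Prim2, -0.040 for Pold1, -0.012 for Rfc3, -0.13 for Rpa2, -0.040 for Rrm1, -0.17 for Dut, -0.24 for Slbp, -0.22 for Atad5 and -0.16 for Exo1.

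Of Wnt minus Shh, 28 members and Mki67 changed sign with the precursor covariate: 0.27 for Orc1, 0.83 for Cdc6, 0.93 for Cdt1, 0.81 for Mcm2, 0.61 for Mcm3, 0.91 for Mcm4, 0.64 for Mcm5, 0.95 for Mcm7, 0.88 for Mcm10, 0.28 for Cdc45, 0.73 for Gins1, 0.54 for Gins2, 0.51 for Pola1, 0.11 for Pola2, 0.28 for Prim1, 0.66 for Prim2, 1.23 for Pole, 0.54 for Pcna, 0.56 for Rfc5, 0.30 for Rpa2, 0.34 for Fen1, 0.49 for Lig1, 0.80 for Rrm1, 0.84 for E2f1, 0.32 for Chaf1a, 1.04 for Chaf1b, 1.05 for Uhrf1, 0.26 for Slbp and 0.70 for Mki67. Relative to the endothelial markers, which are lower in the Wnt arrays, 29 members and Mki67 did: 0.53 for Orc1, 0.68 for Cdc6, 0.85 for Cdt1, 0.63 for Mcm2, 0.65 for Mcm3, 0.81 for Mcm4, 0.44 for Mcm5, 0.57 for Mcm7, 0.64 for Mcm10, 0.40 for Cdc45, 0.69 for Gins1, 0.88 for Gins2, 0.82 for Pola1, 0.53 for Pola2, 0.29 for Prim1, 0.71 for Prim2, 0.052 for Pold1, 0.78 for Pole, 0.70 for Pcna, 0.83 for Rfc5, 0.79 for Rpa2, 0.80 for Fen1, 0.69 for Lig1, 0.86 for Rrm1, 0.74 for E2f1, 0.50 for Chaf1a, 0.69 for Chaf1b, 0.87 for Uhrf1, 0.77 for Slbp and 0.49 for Mki67. With the endothelial covariate they were -0.32 for Orc6, -0.34 for Rfc3, -0.75 for Rrm2, -0.31 for Tyms, -0.55 for Tk1 and -0.33 for Dut. Small Wnt minus Shh differences, none called, also changed sign: 0.032 for Fen1 with the mean of the probe sets, 0.15 for Fen1, -0.21 for Rrm2 and -0.14 for Dut with the probe set of the smallest p, -0.043 for Orc6 and -0.0083 for Tyms after quantile normalization, -0.024 for Orc6 after the median shift, -0.033 for Orc6, 0.018 for Gins2 and 0.0088 for Uhrf1 with array weights, and -0.067 for Orc6, -0.010 for Tyms and -0.0093 for Tk1 without Wnt replicates 1 and 8. Leaving out 1 array changed the sign of 12 small Wnt minus Shh differences, which ran from -0.069 to 0.051 for Orc6, -0.16 to 0.063 for Cdt1, -0.19 to 0.040 for Mcm4, -0.079 to 0.10 for Gins2, -0.15 to 0.029 for Pola1, -0.25 to 0.069 for Pole, -0.12 to 0.0042 for Rfc5, -0.15 to 0.0082 for Fen1, -0.12 to 0.073 for Rrm1, -0.049 to 0.10 for Tyms, -0.019 to 0.20 for Tk1 and -0.14 to 0.12 for Uhrf1. The cause of these changes was not tested. Signals near the ERCC controls limit Orc1, Gins1 and Pole in hindbrain.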
